A study of Homo sapiens with 480 samples.

Results

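Untreated cells of a T cell leukaemia line and of its HIV reporter clone were divided by how much mitotic RNA each cell held, and the cells at both ends were compared. The score of a cell was the summed level of CCNB1, CDC20, PLK1 and AURKB in CPM, its counts scaled to the same total in every well. Within each line the wells were chosen by this score: they were ranked and cut into 3 groups of nearly equal size, and the high wells were set against the low wells. The comparison holds 82 wells of the 480 in the series, each meant to hold 1 sorted cell. In J-Lat A2 these were 31 high and 31 low wells of 94 kept (96 deposited). In Jurkat they were 10 high and 10 low wells of 30 kept (30 deposited). A well was kept if its total was at least 0.1 of its plate's median and it had at least 500 detected genes. The middle wells, 32 in J-Lat A2 and 10 in Jurkat, were used where stated.

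J-Lat A2 is 1 clone derived from Jurkat cells, with a largely latent HIV reporter construct in its genome. Jurkat, a line from a human CD4 T cell leukaemia, lacks the construct. All cells used here had been cultured for 24 h with 0.1% v/v DMSO, the vehicle, and no other agent. High and low cells of a line therefore shared genotype, culture medium and vehicle. They were sorted as single cells into 5 plates, of which P2449 and P2458 were taken as the first batch and P2769, P2770 and P2771 as the second. The culture was not synchronised by any step in the labels, and DNA content was not used here. Separate cultures are stated for neither batch. High and low cells were compared within plates, so p-values measure how the high-to-low difference varied between plates. That spread may be technical, and it includes which cells fell into each plate's groups.

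The score chose the wells, so its values are a description. In J-Lat A2 it had a median of 3321 CPM in high wells (1721 to 6352) and 343 CPM in low wells (84.3 to 586). In Jurkat it had a median of 3871 CPM in high wells (3315 to 5039.8) and 587 CPM in low wells (102.8 to 1124). The wells next to the limits lay close together in J-Lat A2, with 1721 CPM in the lowest high well, 1692 and 598 CPM at the ends of the middle wells, and 586 CPM in the highest low well. In Jurkat these values were 3315, 2811, 1125 and 1124 CPM. The 3 groups are thus ranges of a continuous score and not separate classes of cells.

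**Figure D1:**
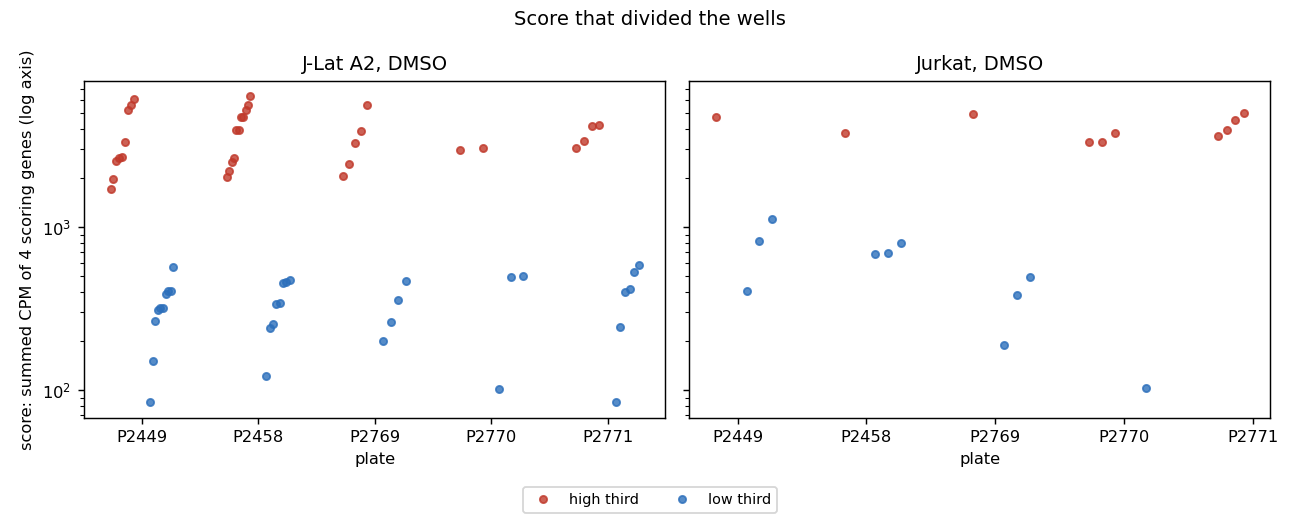
Score of each well (summed CPM of the 4 scoring genes, log axis) by plate, with high wells left of low wells in each plate and 1 point per well. High wells run from 1721 to 6352 CPM in J-Lat A2 and from 3315 to 5039.8 CPM in Jurkat, and plate P2771 has no low Jurkat well.

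A dividing cell copies its DNA in S phase, passes through G2 and divides in M phase. Genes for replication are transcribed mainly around the start of S phase under E2F factors. Genes for mitosis are transcribed from late S phase until division by MYB and FOXM1 complexes. These complexes act on an element named the cell cycle homology region (CHR), and mitotic promoters often hold CCAAT boxes as well. Many mitotic proteins and transcripts are then removed at the end of division, so that cells in early G1 hold little of both programmes.

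The 4 genes that passed the test in J-Lat A2 and PCNA, the replication clamp, are shown with the 250 bases before their RefSeq start (GRCh38.p14). These sequences are shown because mitotic and S phase genes are known to differ in these motifs, and these genes had log2 changes of opposite sign. Capitals mark CCAAT, the CHR letters TTTGAA or TTCGAA, and the E2F letters TTTCCCGC, TTTGGCGC or TTTCGCGC, each searched on both strands. The windows are chr9:137241037-137241286 (plus strand) for TUBB4B, chr15:59104896-59105145 (plus) for CCNB2, chr1:214602945-214603194 (plus) for CENPF, chr17:68035485-68035734 (plus) for KPNA2 and chr20:5126623-5126872 (minus) for PCNA.
TUBB4B: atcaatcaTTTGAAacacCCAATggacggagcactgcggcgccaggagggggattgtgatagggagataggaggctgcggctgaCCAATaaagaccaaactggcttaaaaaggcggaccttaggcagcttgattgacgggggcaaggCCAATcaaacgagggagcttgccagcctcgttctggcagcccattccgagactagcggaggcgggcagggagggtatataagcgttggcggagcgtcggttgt
CCNB2: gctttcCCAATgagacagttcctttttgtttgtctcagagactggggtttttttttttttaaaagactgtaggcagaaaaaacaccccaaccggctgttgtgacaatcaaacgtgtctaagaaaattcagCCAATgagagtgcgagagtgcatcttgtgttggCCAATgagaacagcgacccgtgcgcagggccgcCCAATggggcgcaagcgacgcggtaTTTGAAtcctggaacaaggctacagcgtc
CENPF: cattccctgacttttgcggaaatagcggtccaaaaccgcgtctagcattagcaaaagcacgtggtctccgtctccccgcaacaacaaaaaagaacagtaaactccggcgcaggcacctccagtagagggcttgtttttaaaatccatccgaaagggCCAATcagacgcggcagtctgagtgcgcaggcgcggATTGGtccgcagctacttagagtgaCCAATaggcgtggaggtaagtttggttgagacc
KPNA2: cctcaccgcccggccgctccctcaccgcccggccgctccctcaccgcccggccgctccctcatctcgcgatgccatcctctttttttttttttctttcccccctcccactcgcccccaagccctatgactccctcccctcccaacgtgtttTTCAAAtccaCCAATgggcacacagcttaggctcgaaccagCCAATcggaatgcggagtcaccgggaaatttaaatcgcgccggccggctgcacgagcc
PCNA: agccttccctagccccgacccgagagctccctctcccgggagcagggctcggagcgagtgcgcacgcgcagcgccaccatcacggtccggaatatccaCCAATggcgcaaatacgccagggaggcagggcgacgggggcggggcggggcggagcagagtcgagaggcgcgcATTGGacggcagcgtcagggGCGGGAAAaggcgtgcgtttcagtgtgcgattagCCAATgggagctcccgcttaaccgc
TUBB4B held 3 CCAAT boxes and 1 CHR, CCNB2 held 4 and 1, KPNA2 held 2 and 1, and CENPF held 3 and none of the CHR letters. The PCNA window shown held 3 CCAAT boxes and 1 E2F match and no CHR letters. A second PCNA start in the table (window chr20:5119959-5120208, minus strand, not printed) had 2 CCAAT boxes and no E2F or CHR letters. GENCODE 29 also has transcripts of TUBB4B, CCNB2 and KPNA2 that start inside these windows. Over the 8 mitotic lists (140 genes, 160 promoters, the scoring genes left out) 57.5% of the windows held CCAAT, 33.1% CHR, 24.4% both and 11.9% an E2F match. Over the 3 S phase lists (81 genes, 95 promoters) the shares were 47.4%, 7.37%, 4.21% and 20.0%. Windows of all genes tested in J-Lat A2 held them in 34.8%, 10.5%, 4.20% and 4.26% of cases, and all 35116 promoters of the table in 32%, 14.3%, 5.05% and 2.32%. A match says only that these letters are in the window.

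Kept untreated wells had 45825 to 963663 counts, and no 2 wells held identical values. High wells of J-Lat A2 had a median of 496580 counts and 5321 detected genes, against 584261 counts and 4725 genes in low wells. In Jurkat the medians were 539612 counts and 5872.5 genes in high wells, against 452204 counts and 6193.5 genes in low wells. Thinned to 100000 counts per well, high wells had 4931 genes and low wells 4422 in J-Lat A2 (29 and 31 wells), and 5335 against 5793.5 in Jurkat (10 and 10 wells). The order of detected genes was thus opposite in the lines, and the part of depth and detected genes in the results was not tested. T cell genes were present in both ends: the summed level of 32 receptor and lineage genes had a median over wells of 7580 CPM in high and 6997 CPM in low J-Lat A2 wells, and of 9740 CPM in high and 9056 CPM in low Jurkat wells. Of 27 markers of B cells, myeloid cells, erythroid cells, epithelium and fibroblasts, 1 passed the filter on low counts, the B cell gene CD79A in J-Lat A2. Its level was 64.6 ± 28.05 CPM in high and 60.6 ± 32.2 CPM in low plate sums (SD, n = 5), and the B cell genes MS4A1, CD79B and PAX5 were at 0 in both ends.

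For the comparison, counts were summed over the high and over the low wells of each plate. A plate with both ends gave a pair. Calls were made at an adjusted p under 0.05 (edgeR's quasi-likelihood test with the plate as a block, adjusted over all genes tested except the scoring genes). In J-Lat A2, 4 of 7659 genes rose in high cells and none fell, 0.0522% of those tested. They were the tubulin TUBB4B, the cyclin CCNB2, the kinetochore protein CENPF and the importin KPNA2. At an unadjusted p under 0.05, 3.94% of genes differed (1.93% higher and 2.01% lower), and DESeq2 called 1.41% higher and 0.992% lower on the same sums.

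TUBB4B, a beta-tubulin from which microtubules are built (ENSG00000188229, chromosome 9, 137241213 to 137243707, GRCh38), had 1098, 1039, 903, 1066 and 947 CPM in high sums on plates P2449, P2458, P2769, P2770 and P2771, against 319, 250.3, 204, 296 and 419 CPM in low sums. The lowest high sum was more than 2 times the highest low sum. Its log2 level rose by 1.80 ± 0.17 (SE; adjusted p = 0.0291).

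CCNB2, a B-type cyclin that activates CDK1 beside CCNB1 (ENSG00000157456, chromosome 15, 59105078 to 59125045), had 1139, 829, 1306, 1221 and 1121 CPM in high sums, against 312, 139.4, 222, 443 and 367 CPM in low sums. It rose by 2.01 ± 0.21 (adjusted p = 0.0291), and the ends did not overlap. CENPF, a large protein of the outer kinetochore (ENSG00000117724, chromosome 1, 214603195 to 214664588), had 348, 382, 455, 502.7 and 303 CPM in high sums, against 54.2, 44.6, 132.2, 58.5 and 67.96 CPM in low sums. It rose by 2.56 ± 0.27 (adjusted p = 0.0291) and likewise did not overlap.

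KPNA2, an importin alpha that carries cargo into the nucleus and holds spindle assembly factors in check (ENSG00000182481, chromosome 17, 68035519 to 68046842), had 2449.2, 2359, 1205, 2104 and 2453 CPM in high sums, against 538, 682, 660.3, 503.1 and 756 CPM in low sums. Plate P2769 was the lowest of its high sums and was still above every low sum. It rose by 1.72 ± 0.20 (adjusted p = 0.0421). Sums that did not overlap were seen for 0.810% of the genes tested with the high end above, and for 0.588% with the high end below. Middle wells, normalised separately from the ends, lay between them for all 4 genes. Middle means were 605 CPM for TUBB4B, 416 CPM for CCNB2, 200.4 CPM for CENPF and 1124 CPM for KPNA2. With 1 plate left out, KPNA2 alone passed without P2769 (adjusted p = 0.0193), TUBB4B alone without P2771 (adjusted p = 0.0433), and no gene without P2449, P2458 or P2770. No gene was called when wells were ranked within each plate, split into 2 or 4 groups instead of 3, or scored from ranks, while all 4 genes kept a log2 change above 0 in 19 of 19 alternatives.

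**Figure D2:**
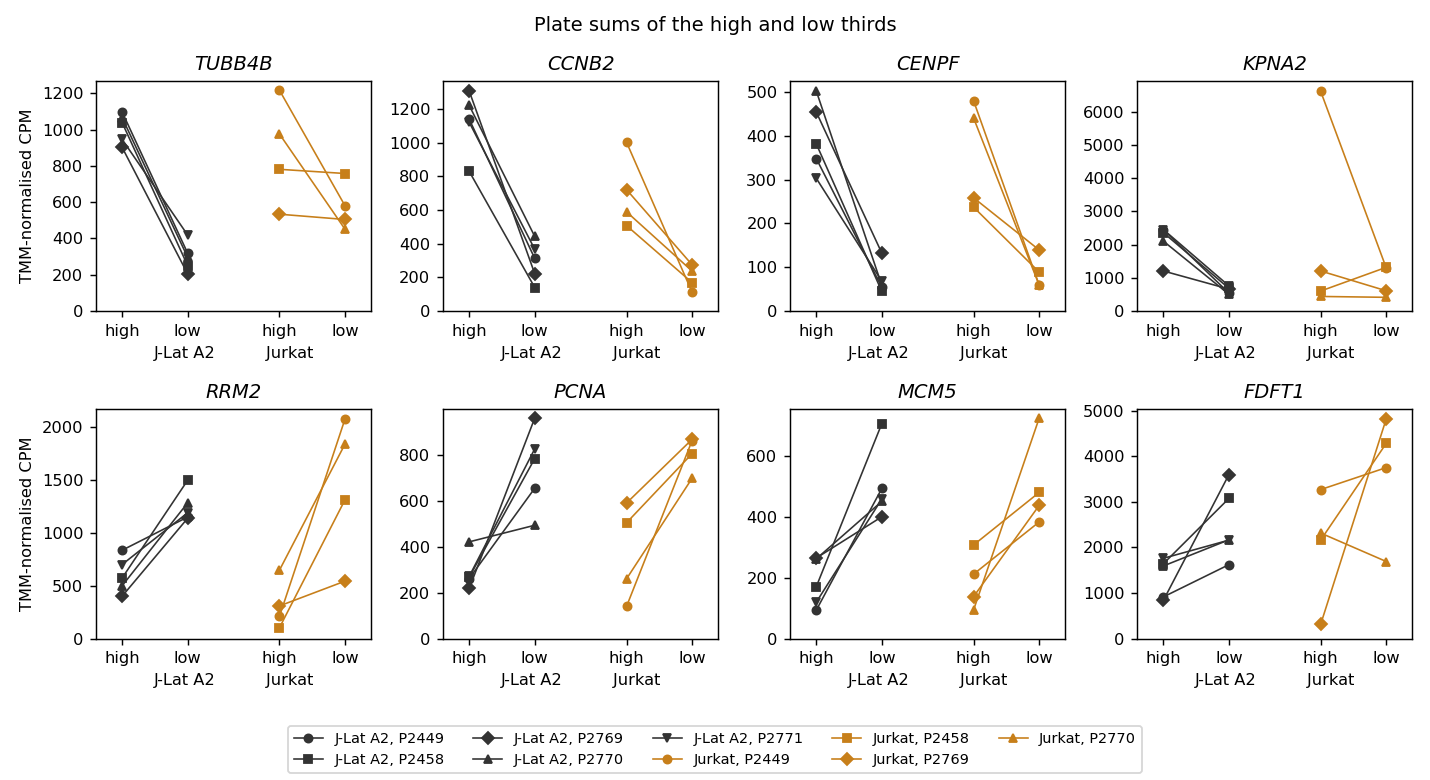
TMM-normalised CPM of plate sums (linear axes from 0) for 8 genes, with high sums left of low sums, a line joining both ends of a plate, black for J-Lat A2 (5 plates) and orange for Jurkat (4 plates). In J-Lat A2 the upper 4 genes lie higher and the lower 4 lie lower in high cells on every plate, for example 1098 against 319 CPM for TUBB4B and 261 against 654 CPM for PCNA on P2449.

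The other mitotic genes are described by their role, from 8 lists with 140 genes besides the scoring genes. In J-Lat A2, 94 of those tested (71.8%) had a log2 change above 0, where 49.2% of all tested genes did. In 32 of them (24.4%) the high sum was above the low sum on every plate, against 3.96% of all tested genes, and in 2 it was below on every plate (4.09% of all tested genes). At an unadjusted p under 0.05, 31 were higher and none lower, against 1.93% and 2.01% of all tested genes. The median log2 change was 0.42, and -0.02 over all genes. Genes named from here on besides the 4 called ones did not pass the test after adjustment, unless said otherwise, and those of lowest p were chosen after their values were seen.

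Kinases, cyclins and regulators of mitotic entry had the largest median of these lists, 2.01 over 17 tested genes. Of these, 11 were higher in high cells on every plate, against 3.96% of all tested genes. AURKA, the kinase that matures centrosomes, had 449, 378, 312, 124.3 and 679 CPM in high sums, against 14.02, 27.1, 0, 0 and 56.3 CPM in low sums. Its reads came from 27 of 31 high and 7 of 31 low wells, and its log2 change was 5.29 ± 0.95 (adjusted p = 0.205). Its activator TPX2 averaged 611 ± 245 CPM in high and 166.2 ± 104.7 CPM in low sums (SD, n = 5), and the CDK-binding subunit CKS2 556 ± 166.9 against 178.5 ± 89.7 CPM. CDC25C, a phosphatase that activates CDK1, was rare at 53.5 ± 44.5 CPM in high and 8.47 ± 12.1 CPM in low sums, with reads in 11 and 4 wells. CDK1 itself, the kinase of mitotic entry, averaged 451 ± 292 CPM in high and 474 ± 197.8 CPM in low sums. Its 5 plate pairs split, with 2 higher and 3 lower in high cells.

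Kinesins and spindle proteins had a median log2 change of 1.14 over 21 tested genes, with 18 above 0. By plate (on CPM with a pseudocount of 1) this list's median ran from -0.31 on P2770, with 2 high wells, to 1.66 on P2449. DLGAP5, which stabilises kinetochore fibres, had 333, 315, 242, 321 and 517.2 CPM in high sums, against 24.4, 10.0, 88.02, 70.8 and 115.4 CPM in low sums, with no overlap (log2 change 2.84 ± 0.53, adjusted p = 0.249). KIF20A, a kinesin of the central spindle, was not tested because it failed the filter on low counts. It had reads in 22 of 31 high wells, 12 of 32 middle wells and 3 of 31 low wells, and 2805 counts over the high wells, against 14.1 over the low wells. Cytokinesis genes had a median of 1.65 over 11 tested genes, 10 of them above 0. RACGAP1, a part of the central spindle complex, averaged 178.9 ± 89.9 CPM in high and 42.0 ± 47.9 CPM in low sums.

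Kinetochore genes had a median of 0.30 over 31 tested genes, 21 of them above 0. NUF2, of the complex that binds microtubules, had 336, 148.6, 291, 264 and 307 CPM in high sums, against 50.6, 80.7, 126.1, 32.2 and 141.1 CPM in low sums. The shugoshin SGO2, which protects centromeric cohesion, averaged 117.2 ± 65.4 against 22.2 ± 21.02 CPM. In the spindle checkpoint list the median was 0.09 over 11 tested genes, with plate medians from -1.04 on P2770 to 1.01 on P2449. In this list 1 gene was higher on every plate, against 3.96% of all tested genes. That gene was BUB1, a checkpoint kinase, with 788, 682, 346, 619 and 851 CPM in high sums, against 297, 277, 56.2, 183.7 and 325 CPM in low sums (log2 change 1.68 ± 0.22, adjusted p = 0.0630). Its lowest high sum lay just above its highest low sum.

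For chromosome separation, the securin PTTG1 had 498, 472, 697, 668 and 591 CPM in high sums, against 281, 136.9, 147.3, 238 and 231 CPM in low sums (log2 change 1.54 ± 0.22, adjusted p = 0.0832). BIRC5, the survivin of the chromosomal passenger complex, averaged 504.9 ± 79.1 CPM in high and 138.4 ± 104.7 CPM in low sums. The list of this complex and of separation had a median of 0.37 over 13 tested genes, with plate medians from -0.14 to 0.54. The anaphase-promoting complex list had a median of 0.04 over 16 tested genes, with 10 above 0 and plate medians from -0.57 to 0.59. Its E2 enzyme UBE2C averaged 366 ± 213 CPM in high and 72.97 ± 20.0 CPM in low sums, and its subunit CDC27 247 ± 32.03 against 84.6 ± 41.7 CPM.

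Condensation genes had a median of 0.48 over 11 tested genes, with plate medians from -0.11 on P2770 to 0.69 on P2449. TOP2A, the topoisomerase that untangles chromosomes, had 1103, 731, 198.5, 773 and 1395 CPM in high sums, against 207, 242, 78.3, 387 and 250.4 CPM in low sums (log2 change 1.77 ± 0.25, adjusted p = 0.0832). Its high sum on P2769 was below 4 of the 5 low sums, so the ends overlapped, while each plate's own pair was higher at the high end. MKI67, the proliferation antigen KI-67, averaged 89.7 ± 49.1 CPM in high and 39.2 ± 6.98 CPM in low sums and was higher on 4 of 5 plates. Tubulins had a median of 0.41 over 9 tested genes. On every plate 5 were higher, TUBB4B among them, against 3.96% of all tested genes. TUBA1C averaged 714.2 ± 321 CPM in high and 254 ± 42.6 CPM in low sums, and the abundant TUBA1B 8732 ± 629 against 6575 ± 657 CPM. Tubulin genes share long near-identical stretches, so how reads were divided among them is uncertain, as it is for ribosomal protein genes and the receptor beta chains.

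Genes of the factors known to switch on mitotic transcription were tested as well. In the list of FOXM1, MYBL2 and the DREAM complex, 8 of 21 tested genes had a log2 change above 0. The median was -0.11. On every plate none was higher and 2 were lower, against 3.96% and 4.09% of all tested genes. FOXM1 was low, at 38.5 ± 44.8 CPM in high and 29.3 ± 19.8 CPM in low sums, with reads in 14 and 10 wells. MYBL2 averaged 39.7 ± 12.8 CPM in high and 61.3 ± 42.3 CPM in low sums. The log2 changes were -0.08 ± 1.65 for FOXM1 and -0.47 ± 0.66 for MYBL2.

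Genes of DNA replication mostly had changes below 0. Over 3 S phase lists (81 genes, 80 tested in J-Lat A2), 68 (85%) had a log2 change below 0, against 50.8% of all tested genes. On every plate 24 were lower in high cells (30.0%, against 4.09% of all tested genes) and none was higher. At an unadjusted p under 0.05, 28 were lower and none higher, against 2.01% and 1.93% of all tested genes. The median log2 change was -0.69. None of them passed the test after adjustment.

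Origin licensing and the MCM helicase, the ring that unwinds DNA at the fork, had a median of -1.05 over 23 tested genes. Of these, 19 were below 0 and 8 were lower on every plate, against 50.8% and 4.09% of all tested genes. MCM5 had 93.3, 170.2, 264, 261 and 119.4 CPM in high sums, against 492, 704.7, 399, 449.8 and 458 CPM in low sums. Every high sum lay below every low sum (log2 change -1.56 ± 0.31, adjusted p = 0.294). MCM7 averaged 624 ± 72.5 CPM in high and 1114 ± 188.97 CPM in low sums, MCM2, MCM3, MCM4 and MCM6 had log2 changes between -1.27 and -0.88, and CDC45, which joins the ring to the active helicase, averaged 141.4 ± 70.3 against 407 ± 119.9 CPM.

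Polymerases, the clamp and its repair partners had a median of -0.56 over 34 tested genes, with 28 below 0. PCNA had 261, 267, 218, 420.5 and 270.3 CPM in high sums, against 654, 782, 958, 493 and 825 CPM in low sums. The ends did not overlap, and P2770 had the smallest gap (log2 change -1.38 ± 0.26, adjusted p = 0.257). RFC4, a subunit of the loader that places PCNA on DNA, had 321, 214, 336, 307 and 123.5 CPM in high sums, against 512, 569, 663, 591 and 549.5 CPM in low sums. UNG, which removes uracil from new DNA, averaged 128.5 ± 83.3 CPM in high and 324 ± 42.5 CPM in low sums, with reads in 20 and 30 wells.

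Nucleotide synthesis genes had a median of -0.41 over 23 tested genes, of which 21 were below 0. RRM2, the regulated subunit of ribonucleotide reductase, had 834, 572, 399.8, 498 and 699 CPM in high sums, against 1148, 1495, 1136, 1282 and 1188 CPM in low sums. All 5 high sums were below all low sums (log2 change -1.10 ± 0.18, adjusted p = 0.188). The middle wells, at 1408 CPM, did not lie between the ends. TYMS, thymidylate synthase, averaged 879.9 ± 223 CPM in high and 1301 ± 249 CPM in low sums, and the middle wells again lay above both at 1473 CPM. Both middle means come from a separate normalisation of all 3 groups, so their scale is not quite that of the ends. On P2771 the middle sum was 1 well.

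The lists were also summed in each well. In J-Lat A2 the S phase sum had a median of 15295 CPM in high wells (10733 to 21536), 23419 CPM in middle wells and 23133 CPM in low wells (12996 to 32486). All 31 high wells lay below the median of the low wells. The mitotic sum, without the scoring genes, had a median of 27949 CPM in high wells (14638 to 43889.9), 23272 CPM in middle wells and 17933 CPM in low wells (9221 to 34425). Of the high wells 30 lay above the median of the low wells and 10 above every low well. By plate, median mitotic sums of high wells ran from 21097 CPM (P2769) to 41067 CPM (P2771). Those of low wells ran from 15260.5 CPM (P2770) to 26183 CPM (P2771), so ends of different plates overlapped. Within each plate the high median was above the low one. Median S phase sums of high wells ran from 15055 to 17349 CPM by plate, and those of low wells from 21805 to 25037 CPM. The order of middle and low wells was mixed over plates. Median S phase sums of middle wells were lower on P2769 (17099 against 21805 CPM), P2771 (20449 against 23743 CPM) and P2458 (24937.5 against 25037 CPM). They were higher on P2449 (25246 against 22206 CPM) and P2770 (23481 against 23354 CPM). In Jurkat the S phase sum of the middle wells, 17766 CPM, lay between the ends. The mitotic sum there had a median of 27782 CPM in high wells, 20606 CPM in middle wells and 20430 CPM in low wells. These Jurkat medians include 4 high wells of P2771 (median mitotic sum 30615 CPM), which had no low well. Median mitotic sums of high against low wells were 40234 against 22095 CPM on P2449 and 19867 against 19883 CPM on P2458. They were 26158 against 17549.5 CPM on P2769 and 23580 against 17043 CPM on P2770. These sums were not tested.

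**Figure D3:**
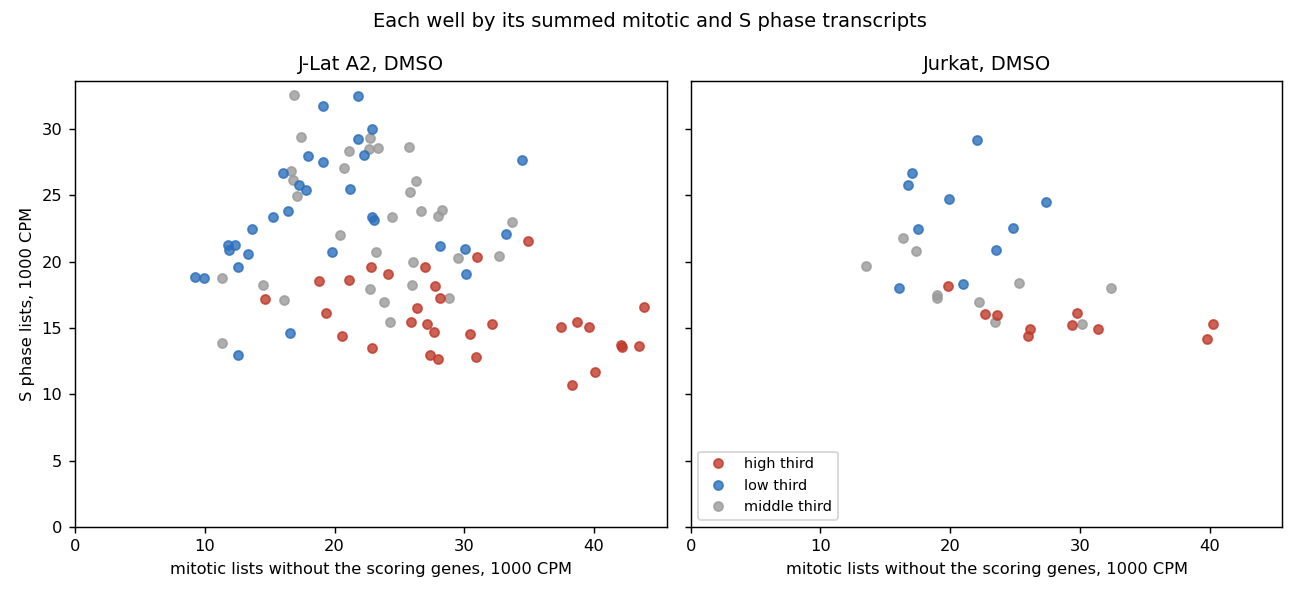
Each kept untreated well by the summed CPM of 8 mitotic lists without the scoring genes (x axis, in 1000 CPM) and of 3 S phase lists (y axis, in 1000 CPM), for high (red), low (blue) and middle (grey) wells. High wells lie low on the y axis, with medians of 15295 CPM in J-Lat A2 and 15268 CPM in Jurkat, against 23133 and 23516 CPM in low wells.

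Lists outside the cell cycle with 5 or more tested genes had medians between -0.49 and 0.17 in J-Lat A2. Of 72 cytoplasmic ribosomal protein genes tested in J-Lat A2, 67 had a log2 change below 0 and 22 were lower in high cells on every plate (4.09% of all tested genes were), but the median was only -0.17 and the list ran from -0.47 to 0.16. RPS3A averaged 1876 ± 397 CPM in high and 2359 ± 396 CPM in low sums. Glycolysis genes were below 0 in 14 of 17 tested cases with a median of -0.19, 6 of them lower on every plate. The enolase ENO1 averaged 3216 ± 299.6 CPM in high and 4036 ± 412 CPM in low sums.

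Cholesterol synthesis genes had a median of -0.49 over 17 tested genes, 16 of them below 0. On every plate 5 were lower, against 4.09% of all tested genes. FDFT1, squalene synthase, had 914, 1641, 838, 1592 and 1760.2 CPM in high sums, against 1621, 3073, 3595, 2166 and 2159 CPM in low sums. Each plate was lower at the high end, and sums of different plates overlapped (log2 change -0.90 ± 0.25, adjusted p = 0.791).

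Heat shock chaperones had a median of 0.16 over 12 tested genes, 8 of them above 0. HSPA8, the constitutive HSP70 chaperone, was the gene of lowest p after the 4 called ones, with 2837, 3118, 5175, 5561 and 5511 CPM in high sums, against 1660.5, 1339, 2942, 2466 and 1904 CPM in low sums (log2 change 1.10 ± 0.13, adjusted p = 0.0535). The second batch was higher than the first at both ends, and the gap between the ends was present on each plate. HMGB2, a chromatin protein, averaged 1838 ± 295 CPM in high and 869.6 ± 143.4 CPM in low sums without overlap (adjusted p = 0.0630).

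T cell receptor and lineage genes had a median of 0.15 over 27 tested genes. On every plate 3 were higher and 2 lower, against 3.96% and 4.09% of all tested genes. TRBC1, the receptor's beta constant chain, averaged 1512 ± 731 CPM in high and 2298 ± 599.6 CPM in low sums, and its high sum on P2770, made of 2 wells, was 260.3 CPM. Medians were 0.00 for 13 mitochondrially encoded genes, 0.08 for 26 ribosome biogenesis genes, 0.01 for 13 apoptosis genes, -0.06 for 14 DNA damage and p53 genes, 0.16 for 14 genes of the nuclear envelope and import, 0.17 for 5 immediate early genes, -0.01 for 15 histone and chromatin protein genes and -0.42 for 9 G1 genes.

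**Figure D4:**
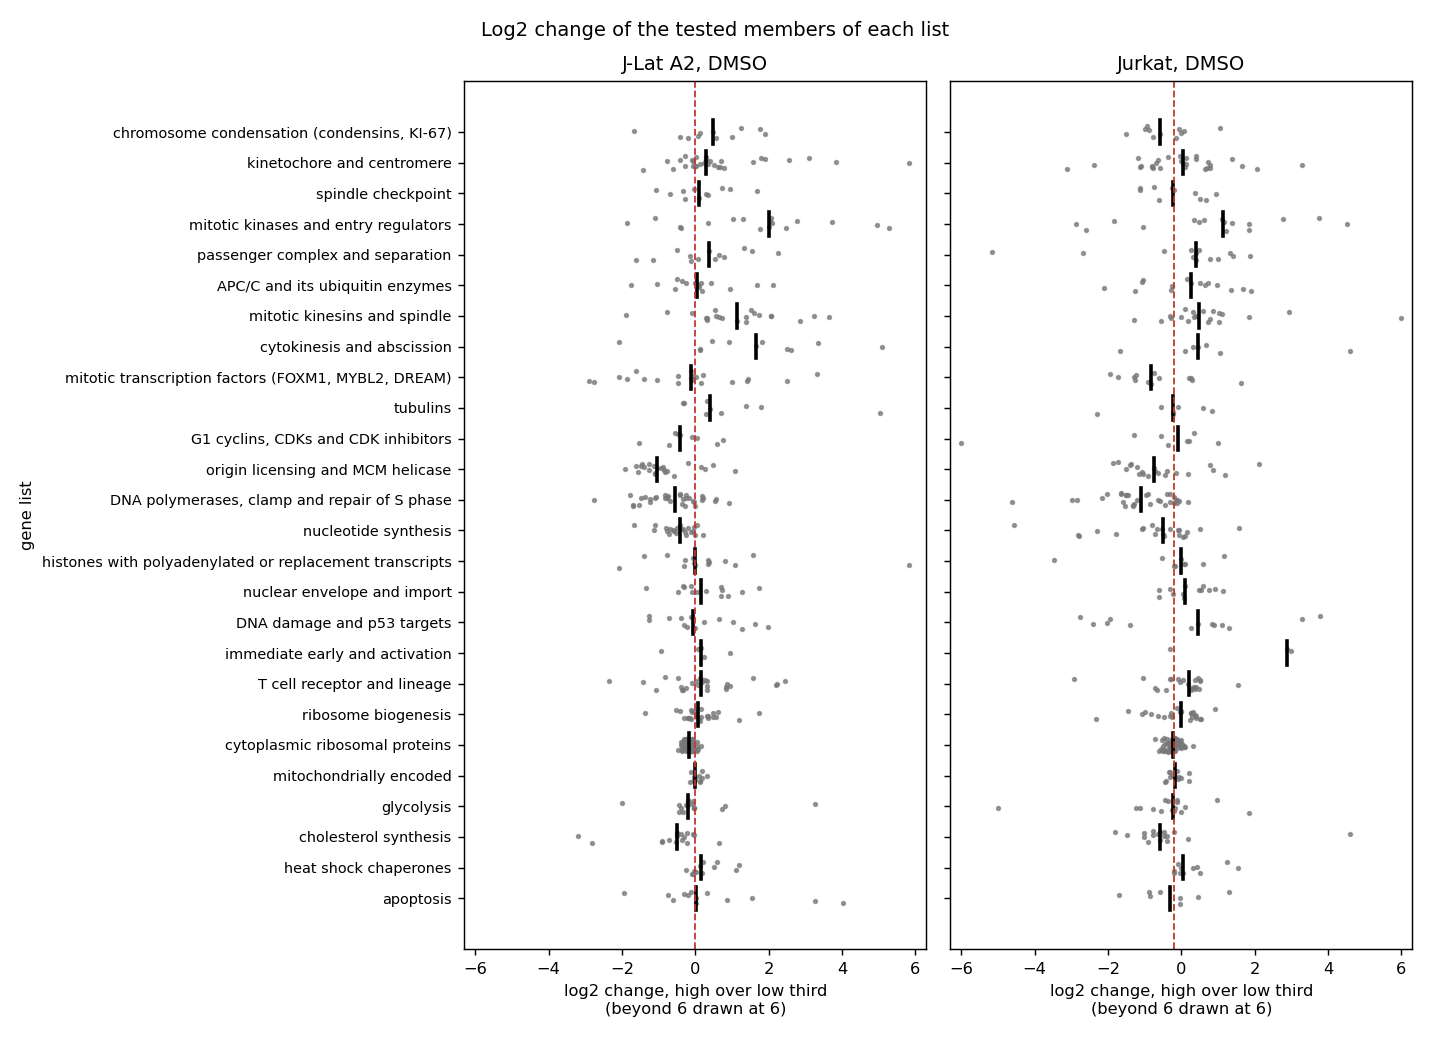
Log2 change of high over low cells for each tested member of each gene list (grey points, values beyond 6 drawn at 6), the list's median (black bar) and the median of all tested genes (red dashed line, -0.02 in J-Lat A2 and -0.19 in Jurkat). Mitotic kinases lie to the right with medians of 2.01 in J-Lat A2 and 1.14 in Jurkat, and origin licensing genes to the left with -1.05 and -0.75.

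Reads of the viral construct, the feature HIVmini, were found in 3 of 31 high, 2 of 32 middle and 0 of 31 low J-Lat A2 wells, with 6, 2 and 0 counts in all. A count of 0 in 31 wells allows a share of up to 9.68%. In Jurkat, which lacks the construct, 1 of 10 high, 1 of 10 middle and 0 of 10 low wells had 1, 1 and 0 counts, which gives the background. A difference between the ends was not detectable at this depth, and this limit covers counting error only.

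Jurkat cells without the construct gave a smaller comparison. Plate P2771 had no low well and its 4 high wells could not be paired, so 4 plates entered the fit, and 3 of their high sums were single wells. Of 5529 genes tested none was called (edgeR), while 56 were higher and 75 lower at an unadjusted p under 0.05 (1.01% and 1.36%, 2.37% in all). DESeq2 called 29 and limma with equal weight per well none. The median of all genes was -0.19. It was -0.43 without P2770 and 0.0061 without P2769, so list values are given beside it.

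CCNB2 had 1003, 507.4, 721.1 and 589 CPM in high Jurkat sums on P2449, P2458, P2769 and P2770, against 112.1, 168.7, 275 and 237 CPM in low sums (log2 change 1.85 ± 0.39). CENPF had 480.4, 237, 259 and 441 CPM in high sums, against 59.4, 88.9, 139.5 and 59.4 CPM in low sums (log2 change 2.06 ± 0.52). Neither gene's ends overlapped, as was so for 1.12% of the genes tested with the high end above and 2.3% with the high end below. KIF20A had 470.4, 241, 209 and 125.2 CPM in high sums, against 18.9, 5.44, 0 and 0 CPM in low sums. It had reads in 10 of all 10 high wells, those of P2771 included, against 2 of 10 low wells. Of the other called genes of J-Lat A2, TUBB4B averaged 877 ± 290.4 CPM in high and 574 ± 134.1 CPM in low sums (SD, n = 4). KPNA2 had 6617, 602, 1205 and 438 CPM in high sums, against 1298, 1315, 608 and 412 CPM in low sums, with 1 well on P2449 far above the rest.

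Of the mitotic list genes tested in Jurkat, 73 had a log2 change above 0 (60.3%, against 40.2% of all tested genes), and 19 were higher on every plate (15.7%, against 4.40%). In 8 of them the high sum was lower on every plate, against 9.12% of all tested genes. At an unadjusted p under 0.05, 12 were higher and 2 lower, against 1.01% and 1.36% of all tested genes. The median was 0.33. It was 1.14 for mitotic kinases and entry regulators, 0.04 for kinetochore genes, -0.24 for the spindle checkpoint and -0.58 for condensation genes, of which 9 of 11 were below 0. Of 75 S phase genes 64 were below 0 (85.3%, against 59.8%), 27 were lower on every plate (36%, against 9.12%) and 1 was higher, and the median was -0.75. PCNA had 139.5, 503.3, 589 and 259.6 CPM in high sums, against 860.4, 804, 866 and 697 CPM in low sums. EXO1, a repair exonuclease, had 31.9, 0, 0 and 26.9 CPM in high sums, against 260.0, 296, 222 and 323 CPM in low sums. The cyclin gene CCNE2, whose product drives entry into S phase, was at 0 in 3 of 4 high sums and had 126.3 to 237 CPM in low sums. The high sums of P2449, P2458 and P2769 were 1 well each, against 3 wells in each low sum there. A 0 on these plates therefore means no reads in 1 well. Per well, the S phase sum had a median of 15268 CPM in high and 23516 CPM in low wells. All 10 high wells, the 4 of P2771 included, lay below the low median.

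The gene of lowest p in Jurkat was MYC, a transcription factor of growth, with 454, 483, 826 and 1414 CPM in high sums, against 20.3, 110.7, 142.04 and 247 CPM in low sums (log2 change 2.87 ± 0.44, adjusted p = 0.750). No high sum overlapped a low one. In J-Lat A2 MYC averaged 263 ± 130.8 CPM in high and 258 ± 126.3 CPM in low sums (log2 change 0.07 ± 0.52). H4C3, a replication-dependent histone gene, had 21.9, 28.6, 148.6 and 15.9 CPM in high Jurkat sums, against 414, 768, 471 and 166.2 CPM in low sums. Of these Jurkat sums, the high ones of P2449, P2458 and P2769 and the low one of P2770 were 1 well each.

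The difference of the high-over-low change between J-Lat A2 and Jurkat was tested as an interaction over 8887 genes. None was called by edgeR. At an unadjusted p under 0.05, 2.25% differed (1.73% higher and 0.518% lower in J-Lat A2), and DESeq2 called 20. The median difference over all genes was 0.31 and not 0. It was 0.039 without P2769 and 0.72 without P2770, so values of single genes are given beside it. The difference was 1.26 for TUBB4B, 1.18 for KPNA2, 0.20 for CCNB2 and 0.53 for CENPF on the log2 scale, and -2.77 for MYC, with an adjusted p of 1 for MYC. Of 5463 genes tested in both lines, 53.6% had changes of the same sign. Of the mitotic list genes 66.4% and of 75 S phase genes 77.3% did. The lines shared plates but no wells.

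**Figure D5:**
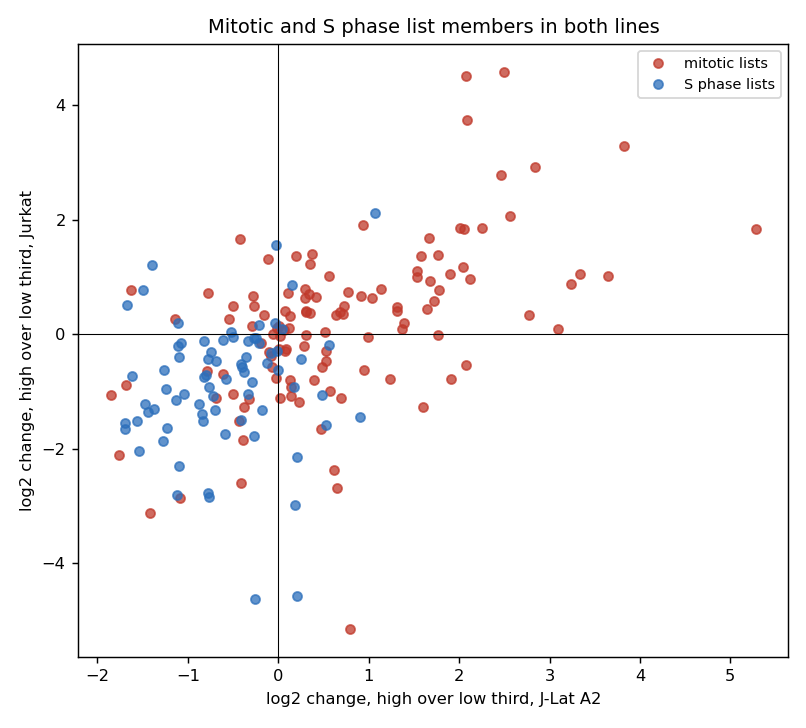
Log2 change of high over low cells in J-Lat A2 (x axis) and Jurkat (y axis) for tested genes of the mitotic lists (red) and S phase lists (blue), 1 point per gene. Points are genes tested in both lines. S phase genes gather in the lower left, and mitotic genes spread to the upper right. Over all members tested in each line, medians were -0.69 and -0.75 for S phase genes and 0.42 and 0.33 for mitotic genes.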

How the data were processed

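Single cells were sorted into 96-well plates and their full-length cDNA was sequenced, 1 well per cell. The deposited table holds expected counts of 20302 features in 480 wells, not divided by depth. The tools named in the submitters' processing notes are Salmon 1.5.1 and alevin and the build is GRCh38.p13, without their roles. Library primers carry no molecular identifier, so these are read counts after amplification. The sources used here give no other upstream step.

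Wells were kept by total (at least 0.1 of the plate median) and by genes (at least 500), scored by summed CPM and ranked within each line. The deposited expected counts were summed over the high, middle and low wells of each plate and rounded to whole numbers. High and low sums were compared by a two-sided quasi-likelihood test in edgeR 4.0.16 (R 4.3.3; TMM, filterByExpr, plate as a block). P-values were adjusted by Benjamini and Hochberg over every tested gene except the 4 scoring ones. Residual degrees of freedom were 4 in J-Lat A2, 3 in Jurkat and 7 for the difference. An SE is the size of the log2 change over the square root of F. Levels are TMM-normalised CPM of plate sums, and well-level values are plain CPM. High and low levels were normalised over the sums of the ends and the genes tested. Middle levels of single genes were normalised over the sums of all 3 groups and the full totals. DESeq2 1.42.0 and limma 3.58.1 were alternatives. The scripts were tested on simulated counts.

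High and low sums of a plate are paired because the labels put their wells on the same plate. After removing the means of the ends, their deviations correlated at 0.0042 to 0.15 in J-Lat A2 and -0.012 to 0.091 in Jurkat. The batches were inferred from the plate numbers and the stated 2 and 3 plates per batch. Gene positions are from GENCODE 29 (GRCh38).

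The rule for named genes took up to 12 called genes each way per line (5 for the difference) with a mean of at least 20 CPM and the same direction on every plate, from each list at most 4 called members or else the 2 of highest level, and HIVmini. As few genes were called, the 30 genes of lowest p in J-Lat A2, the 15 in Jurkat and other list members were named after their values were seen. The wells, lists and scoring genes were chosen with earlier results of these data known.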

Additional observations from a re-analysis of the deposited data

Results flagged for a closer look

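Log2 changes of named genes (on CPM with a pseudocount of 1) and medians of lists were examined per plate. In 8 of them (7.08%) 1 plate stood apart from the rest of its group, and chance alone does so in about 1 in 20. In Jurkat, CCNB2 was highest on P2449 at 3.149, with 1.31 to 1.58 on the other plates. CDC27 was highest on P2770 at 7.726, and MCM4 was lowest on P2769 at -9.265. Among the Jurkat lists, the passenger complex and separation genes had a median of 3.852 on P2770. DNA damage and p53 targets had -2.145 and ribosome biogenesis genes -0.3882 on P2769. In J-Lat A2, G1 genes had a median of 0.6831 on P2770 and apoptosis genes 0.1932 on P2771, where the other plates were at or below 0. The high Jurkat sums of P2449 and P2769 are 1 well each, as is the low Jurkat sum of P2770.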

How the results depend on the processing

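In J-Lat A2, 4 genes (0.0522% of those tested) were called as reported, 4 with RLE size factors, 6 with a score without CCNB1, 5 with deeper wells only and 6 with sums per batch. DESeq2 called 2.4%, and 23 genes (0.185%) were called with no low-count filter. With no replicate block, where the plate pairing is ignored, 7 genes (0.0914%) were called. Wells thinned to equal depth gave 19 (0.337%), limma with equal weight per well 16 (0.209%), and keeping the middle wells in the fit 14 (0.164%). Ranking within each plate, 2 or 4 groups instead of 3, and a score from ranks gave 0 each. Leaving out 1 plate gave 0 to 1 genes (0% to 0.0129%). In Jurkat, where none was called, DESeq2 called 29 (0.525%), no low-count filter gave 14 (0.127%) and sums per batch 9 (0.11%). The other alternatives, the fit without the replicate block included, gave 0. For the difference between lines DESeq2 called 20 (0.225%), no low-count filter gave 10 (0.0781%), keeping the middle wells 1 (0.0105%) and the other alternatives 0. The cause of these changes was not tested.

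No called gene changed sign, and the 4 called genes passed in 9 to 11 of 19 alternatives, with an adjusted p (over all genes) of up to 0.357. Of the medians of lists, 913 values stayed within the spread between plates and 54 moved further. In Jurkat 3 high sums are single wells.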
